A study of Saccharomyces cerevisiae with 18 samples.

Results

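The alpha-labelled haploid yeast was compared between 7% and 3% ethanol, with 2 arrays at 7% set against 2 arrays at 3%, which are 4 of the 18 arrays of the series. The 4 arrays were taken by their sample titles, and the comparison was chosen with earlier results of these data known. Saccharomyces cerevisiae of 3 strains, a haploid labelled Mat alpha, a haploid labelled Mat a and a diploid, all described as ethanol tolerant, was grown at 0%, 3% or 7% ethanol by volume, with 2 samples for each strain and level. Every culture grew in a fermentor in YPD, a rich medium of yeast extract, peptone and a large supply of glucose, and was taken at mid-exponential phase. The 2 groups compared here therefore share strain, medium and growth phase and differ in the ethanol in the medium. The labels give mating type and ploidy but no other allele of the strains, and they do not say whether the 2 samples of a group came from separate fermentors. The p-values below therefore measure the spread between these samples, which may be technical, and the number of arrays limits the precision.

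Ethanol is the product of sugar fermentation and, at high levels, a poison for the yeast that makes it. It makes the plasma membrane leaky to protons, disturbs protein folding much as heat does, and slows nutrient uptake. Yeast in ethanol is known for making heat shock proteins and the protective sugar trehalose, for remodelling its membrane lipids and cell wall, and for matching ribosome synthesis to its growth. Amino acid synthesis is driven by the activator Gcn4, whose amount is set mainly when its mRNA is translated.

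Levels are scaled signals: the deposited intensity of a probe set, multiplied by 1 factor per array so that all arrays have the same 2% trimmed mean. A difference is 7% minus 3% in log2(scaled signal + 16), given ± SE of a limma fit in which the 9 groups of the series share the spread. A gene is called, and said to have risen or fallen, where the adjusted p (limma, Benjamini-Hochberg over 5363 genes, two-sided) was under 0.05. Folds are taken after adding 16 and so understate the change of dim genes. In each pair of signals, replicate 1 comes before replicate 2. The arrays at 7% and at 3% did not overlap in any called gene whose signals are printed, which for the 30 genes of largest change was a condition of their choice.

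The transcripts of mating type matched the alpha label of this strain. MF(ALPHA)1, the gene of the alpha-factor pheromone, read 4499 and 4973 at 7% and 4536 and 4049 at 3%, and all 5 alpha-specific genes measured lay above the background limit on all 4 arrays. Summed over the 5, their signal was 11240 to 11760 at 7% and 12540 to 12650 at 3%. The 7 a-specific genes summed to 89.8 to 98.3 at 7% and 89.0 to 105.5 at 3%, and 3 of the 7, MFA2, STE2 and STE6, lay above the limit on all 4 arrays. HMRA1, which is expressed in a cells and in diploids, was never above the limit in these 4 arrays. The strain labelled a, used below for comparison, went against its label: MF(ALPHA)1 read 4457 and 4745 there at 7% and 4721 and 4863 at 3%, while the diploid read 16.6 and 10.4 at 7% and 17.0 and 14.7 at 3%. It is called the strain labelled a throughout.

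The 4 arrays were close in most measures of quality but not in the 18S rRNA control. Their scaling factors were 1.07 and 1.19 at 7% and 1.03 for each array at 3%, and 5291 to 5296 genes at 7% and 5229 to 5268 at 3% exceeded the array's background limit. Replicate arrays differed with an SD of 0.116 at 7% and 0.125 at 3% on the log2 scale. The ACT1 control probes, a sign of RNA integrity, read 1.13 to 1.19 times as high at the 3' end as at the 5' end at 7% and 1.14 to 1.23 times at 3%. The 18S rRNA control read 1456 and 624.2 at 7% and 1217 and 471.8 at 3%, higher in replicate 1 of each group.

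More genes were higher at 7% than lower, but the largest shifts ran both ways. Of 5363 genes, 888 rose (16.6%) and 539 fell (10.1%), which is 26.6% in either direction. A step of 2-fold or more was seen in 2.57% of genes, upward in 58 (1.08%) and downward in 80 (1.49%). The split depended on how the arrays were scaled: it was 804 higher and 707 lower with quantile normalization, 636 and 787 with median centring, and 322 and 499 with the deposited values unscaled. The median of all genes was 0.05 in the main scaling and -0.06 unscaled, so changes are best read relative to that median. Where a group was dim, the size of a change also depended on the 16 that was added: GIT1, at 2.81, was at 3.85 with 1 added and at 1.67 with 64 added, and FLO11, INO1, CHA1, HXT2, PRY3 and FUS1 shifted by over 1.5-fold as well. For 3477 genes (64.8%) the arrays at 7% did not overlap those at 3%, a share so high that non-overlap alone says little about a single gene.

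**Figure D1:**
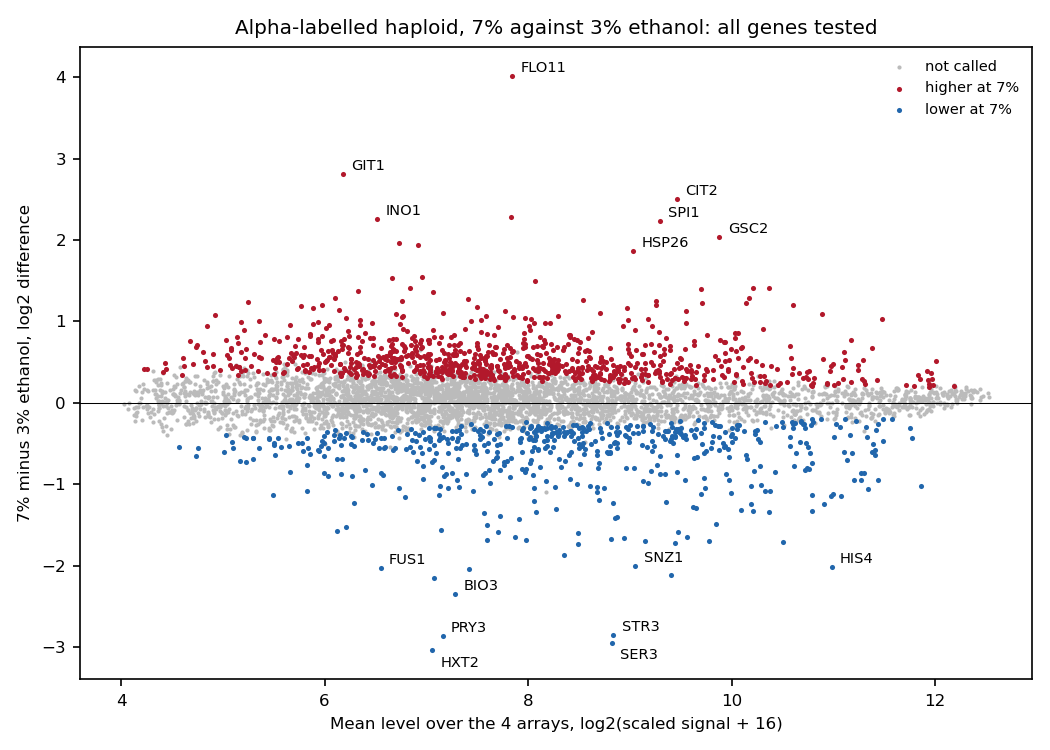
Difference between 7% and 3% ethanol in the alpha-labelled haploid (log2, vertical axis) against the mean level over the 4 arrays (log2 of scaled signal plus 16, horizontal axis), 1 point for each of the 5363 genes tested. Red points are the 888 genes higher at 7%, blue points the 539 lower and grey points those not called, and FLO11 at the top stands 4.02 above 0 while HXT2 at the bottom stands at -3.04.

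The largest rise of the comparison was in FLO11 (YIR019C), which encodes a mucin-like protein of the cell surface needed for adhesion, biofilms and filamentous growth. FLO11 read 910.3 and 907 at 7%, against 46.9 and 35.7 at 3%. The arrays at 7% were nearly equal and far above those at 3%. The rise was 4.02 ± 0.15, which is 16.2-fold (adjusted p = 5.77e-14). At 0% ethanol FLO11 read 33.1 and 26.4, close to the 3% values. The arrays read RNA pooled over a culture, so more FLO11 RNA per cell and more cells that express it cannot be told apart.

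The other calls among flocculation genes were small steps. Of the 6 measured, FLO11 included, 2 rose and 1 fell (median -0.03), beside 16.6% and 10.1% of all genes. The rises and falls counted in every list below are to be read beside these shares. FLO9, a flocculin measured by a probe set shared with another gene, rose by 0.49 ± 0.15 (adjusted p = 0.0213), a call not made with quantile normalization, without 7% replicate 1 or without 3% replicate 2. TEC1, an activator of filamentous growth that acts on FLO11, fell by 0.49 ± 0.1 (adjusted p = 0.000858). FLO8, the main activator of FLO11, was at -0.02 ± 0.12 (adjusted p = 0.932) and its partner MSS11 at -0.04 ± 0.12 (adjusted p = 0.823).

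The largest fall was in HXT2 (YMR011W), a glucose transporter of high affinity. HXT2 read 29.6 and 31.0 at 7%, against 355 and 376 at 3%. Both arrays at 7% lay far below both at 3%. HXT2 fell by 3.04 ± 0.11, or 8.23-fold on the scale of the fit (adjusted p = 4.52e-14). At 0% its signal was 1187 and 1442, so that across the 3 ethanol levels HXT2 stepped down at 3% and again at 7%.

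Hexose carriers of low affinity went the other way. HXT3 read 3029 and 2976 at 7% and 1749 and 1751 at 3% and rose by 0.77 ± 0.061 (adjusted p = 4.93e-09), and HXT1 rose by 0.74 ± 0.17 (adjusted p = 0.00296). Of the 19 transporters and sensors with a probe set, 16 entered the test: 2 rose and 3 fell (median -0.02). HXT9 fell by 0.53 ± 0.14 (adjusted p = 0.00656) and HXT5, a carrier made in slow growth, by 0.43 ± 0.12 (adjusted p = 0.00969), but without 3% replicate 1 the falls were 1, that of HXT2. Both glucose sensors were without a call, SNF3 at 0.26 ± 0.12 (adjusted p = 0.123) and RGT2 at -0.06 ± 0.17 (adjusted p = 0.837).

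Below the transporters, glycolysis itself was almost level. Of 18 genes 3 rose and 1 fell (median 0.15). HXK1, a hexokinase that glucose represses, read 1720.0 and 1691 at 7% and 738 and 705 at 3%, with no overlap, and rose by 1.22 ± 0.068 (adjusted p = 2.32e-11). Glucokinase, GLK1, rose by 0.47 ± 0.063 (adjusted p = 8.4e-06) and GPM2, a poorly active relative of phosphoglycerate mutase, by 0.67 ± 0.11 (adjusted p = 0.000108). The member that fell was GPM3, its other relative, by 0.38 ± 0.12 (adjusted p = 0.0265), a call that ended without 7% replicate 1 and without 3% replicate 1.

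**Figure D2:**
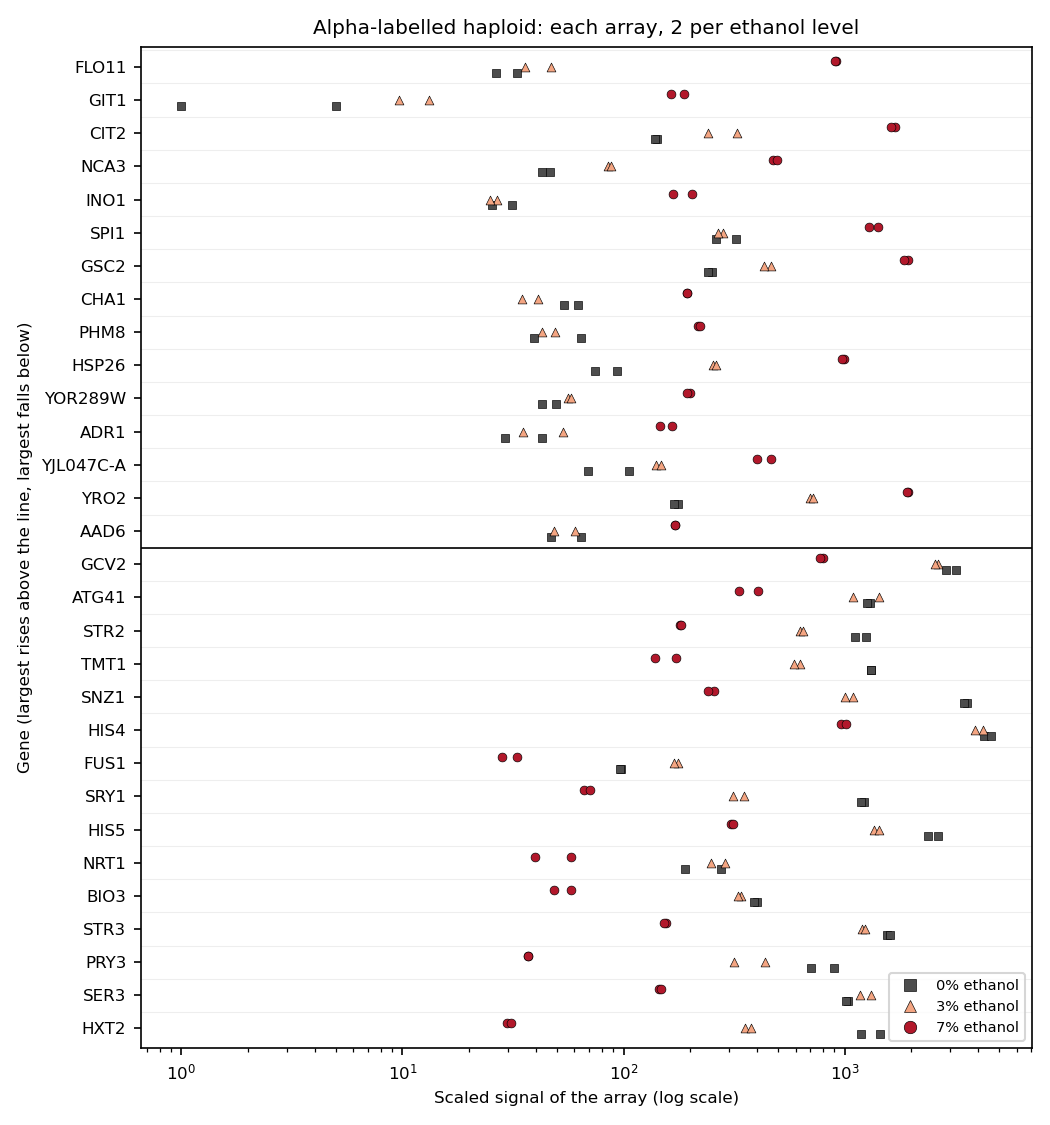
Scaled signal (log axis) of the 15 genes with the largest rise and the 15 with the largest fall at 7% against 3%, in the alpha-labelled haploid at 0%, 3% and 7% ethanol, 1 symbol per array. For each of the 30 genes the 2 arrays at 7% lie apart from the 2 at 3%, as their choice required, FLO11 reaching 910.3 and 907 and HXT2 dropping to 29.6 and 31.0.

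Genes that make amino acids were lower at 7%. In the histidine pathway 5 of 7 genes fell and 0 rose (median -1.08). HIS4 (YCL030C), which catalyses several steps of the pathway, read 964 and 1017 at 7%, against 3882 and 4245 at 3%. HIS5 (YIL116W), the histidinol phosphate aminotransferase, read 307 and 314 at 7%, against 1366 and 1425 at 3%. In both genes the arrays of each group were close together and the groups far apart. HIS4 fell by 2.02 ± 0.07 (adjusted p = 2.36e-14) and HIS5 by 2.11 ± 0.10 (adjusted p = 2.46e-12). HIS7 fell by 1.41 ± 0.086, HIS3 by 1.08 ± 0.084 and HIS1 by 0.95 ± 0.067 (adjusted p at most 2.94e-09).

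The same direction was seen in the other amino acid pathways, with smaller steps. All 8 arginine genes measured fell (median -0.86). ORT1, the mitochondrial ornithine carrier, fell by 1.68 ± 0.13 (adjusted p = 5e-09), and ARG3 and ARG4 by 1.12 ± 0.08 and 1.12 ± 0.055. Of 10 lysine genes 8 fell (median -0.37), led by LYS1, saccharopine dehydrogenase, at -1.22 ± 0.085 (adjusted p = 6.97e-10) and LYS2 at -0.95 ± 0.084. Of 12 genes of leucine, isoleucine and valine synthesis 10 fell (median -0.32), and BAT2, a branched-chain aminotransferase, fell by 0.82 ± 0.071 (adjusted p = 1.79e-08). Of 12 aromatic genes 8 fell (median -0.28). TRP4 of tryptophan synthesis fell by 1.19 ± 0.097 and ARO3, an entry enzyme of the shikimate pathway, by 0.85 ± 0.068 (adjusted p = 4.71e-09). The aromatic count was 5 without 7% replicate 2 and also 5 without 3% replicate 1. Threonine and homoserine genes had 2 falls of 5, with aspartate kinase, HOM3, at -0.42 ± 0.061 (adjusted p = 2.09e-05), and 1 fall without either 7% array and 4 with median centring. No member of these 5 pathways rose.

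The RNA of the main activator of these pathways was without a call. GCN4, the general activator of amino acid synthesis, read 3363 and 3524 at 7% and 3132 and 3379 at 3%, a difference of 0.08 ± 0.073 (adjusted p = 0.45). Its kinase GCN2 was at -0.03 ± 0.15 (adjusted p = 0.917) and LEU3, the regulator of leucine genes, at -0.09 ± 0.12 (adjusted p = 0.647). Of 21 regulators of amino acid and nitrogen genes 1 rose and 4 fell. MCM1, a factor for arginine and cell-type genes, rose by 0.48 ± 0.12 (adjusted p = 0.00659), and 0 members rose without scaling, without 7% replicate 1 and without 3% replicate 2. LYS14, the activator of lysine genes, fell by 0.30 ± 0.10 (adjusted p = 0.0366). Without 7% replicate 2 the regulators had 2 rises and 2 falls.

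Serine and glycine genes held 3 of the largest falls and 1 of the largest rises. SER3 (YER081W), which opens the serine pathway, read 145 and 148 at 7%, against 1170.0 and 1311 at 3%. The groups were well apart and SER3 fell by 2.94 ± 0.11, or 7.7-fold (adjusted p = 3.67e-14). SRY1 (YKL218C), which breaks down hydroxyaspartate, read 66.2 and 70.5 at 7%, against 349 and 312 at 3%, and fell by 2.04 ± 0.086 (adjusted p = 3.64e-13). GCV2 (YMR189W), a subunit of glycine decarboxylase, read 800.4 and 776 at 7%, against 2648 and 2573 at 3%. It fell by 1.71 ± 0.072 (adjusted p = 3.64e-13), and SHM2, the cytosolic serine hydroxymethyltransferase, by 1.03 ± 0.065 (adjusted p = 1.33e-10).

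CHA1 (YCL064C), the deaminase with which yeast degrades serine and threonine, went up. It read 194 and 194 at 7%, against 41.1 and 34.7 at 3%. The arrays at 7% were equal to the printed digit, and the rise was 1.96 ± 0.11, or 3.9-fold (adjusted p = 2.41e-11). CHA4, its activator, was at -0.19 ± 0.12 (adjusted p = 0.258). In all, 10 of 13 serine and glycine genes fell and 2 rose (median -0.95). The other gene that rose was SHM1, the mitochondrial hydroxymethyltransferase, at 0.22 ± 0.078 (adjusted p = 0.0455), a call that ended without scaling, with median centring and when any single array was left out.

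Sulfur genes fell as well. Of 10 genes of sulfate assimilation 9 fell and 0 rose (median -1.02). MET3, ATP sulfurylase, read 439 and 354 at 7%, against 1203 and 1232 at 3%, and fell by 1.59 ± 0.11 (adjusted p = 5.06e-10). MET5 and MET10, the subunits of sulfite reductase, fell by 1.67 ± 0.094 and 1.5 ± 0.089 (adjusted p = 2.45e-11 and 5.71e-11). MET14, which phosphorylates the activated sulfate, fell by 1.21 ± 0.11 (adjusted p = 2.86e-08).

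Of 21 genes of methionine, cysteine and S-adenosylmethionine, 10 fell and 0 rose (median -0.33). STR3 (YGL184C) and STR2 (YJR130C) carry cysteine sulfur to homocysteine. STR3 read 156 and 152 at 7%, against 1203 and 1232 at 3%, values at 3% that happen to match those of MET3. STR2 read 181 and 182 at 7%, against 632 and 650.2 at 3%. STR3 fell by 2.86 ± 0.096, or 7.25-fold (adjusted p = 2.36e-14), and STR2 by 1.73 ± 0.08 (adjusted p = 1.18e-12). Methionine synthase, MET6, fell by 1.15 ± 0.07 (adjusted p = 7.66e-11). Of the regulators, MET28 fell by 0.63 ± 0.13 (adjusted p = 0.000705), and MET4, the main activator, was at 0.11 ± 0.16 (adjusted p = 0.671).

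Most purine synthesis genes fell. Of 17 genes 10 fell and 1 rose (median -0.84). ADE4, which commits the pathway, read 794 and 673 at 7%, against 1844 and 1896 at 3%, and fell by 1.33 ± 0.08 (adjusted p = 6.45e-11). ADE2 fell by 1.33 ± 0.065, ADE1 by 1.14 ± 0.064 and MTD1 of folate metabolism by 1.24 ± 0.074 (adjusted p at most 6.45e-11). IMD4, an IMP dehydrogenase, rose by 0.25 ± 0.079 (adjusted p = 0.0226) and was not called with median centring, without scaling or without 7% replicate 1, 7% replicate 2 or 3% replicate 1. BAS1, the activator of the ADE genes, was at 0.02 ± 0.11 (adjusted p = 0.929).

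Vitamin genes gave the lowest list median. Of 6 genes for biotin synthesis and uptake 5 fell (median -1.36) against 0.05 over all genes. BIO3 (YNR058W), an aminotransferase of biotin synthesis, read 57.6 and 48.7 at 7%, against 340.2 and 329 at 3%. Its groups were far apart, and it fell by 2.35 ± 0.10 (adjusted p = 7.04e-13). BIO5, which imports a biotin precursor, fell by 1.58 ± 0.13, BIO2, biotin synthase, by 1.43 ± 0.10 and the biotin carrier VHT1 by 1.30 ± 0.13 (adjusted p at most 1.06e-07). BIO4 fell by 1.08 ± 0.12 (adjusted p = 6.57e-07).

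SNZ1 (YMR096W), of vitamin B6 synthesis, read 257 and 241 at 7%, against 1093 and 1010.0 at 3%, and fell by 2.01 ± 0.069 (adjusted p = 2.36e-14). At 0% it read 3564 and 3482, so its level was lower at each step of ethanol. Its partner SNO1 fell by 0.90 ± 0.10 (adjusted p = 8.53e-07). NRT1 (YOR071C), a carrier of nicotinamide riboside, read 57.7 and 39.7 at 7%, against 248 and 288 at 3%, and fell by 2.15 ± 0.17 (adjusted p = 4.25e-09). In the list of thiamine and vitamin B6 genes as a whole 4 of 14 fell and 1 rose (median -0.09). The gene that rose was THI7, the thiamine carrier, at 0.39 ± 0.12 (adjusted p = 0.0167), a call that ended without scaling, without 7% replicate 1 and without 3% replicate 2.

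Nitrogen genes were split by pathway. Of 24 genes 7 fell and 2 rose (median -0.18). GDH2, the glutamate dehydrogenase that releases ammonium, read 546 and 518 at 7%, against 1459 and 1594 at 3%, and fell by 1.49 ± 0.092 (adjusted p = 1.02e-10). Arginase, CAR1, fell by 1.04 ± 0.1 (adjusted p = 8.47e-08) and MEP1, an ammonium carrier, by 1.01 ± 0.15 (adjusted p = 3.01e-05). PUT1 and PUT2 of proline breakdown rose, by 0.92 ± 0.14 and 0.74 ± 0.11 (adjusted p = 5.06e-05 and 3.95e-05). Among 16 amino acid permeases 6 fell and 3 rose. GAP1, the general permease, fell by 0.82 ± 0.14 (adjusted p = 2e-04) and the arginine permease CAN1 by 0.64 ± 0.08 (adjusted p = 3.36e-06), while TAT1 rose by 0.89 ± 0.11 (adjusted p = 1.99e-06), AGP2 by 0.54 ± 0.14 and DIP5 by 0.34 ± 0.098. The rises were 1 without scaling and 1 without 7% replicate 1.

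**Figure D3:**
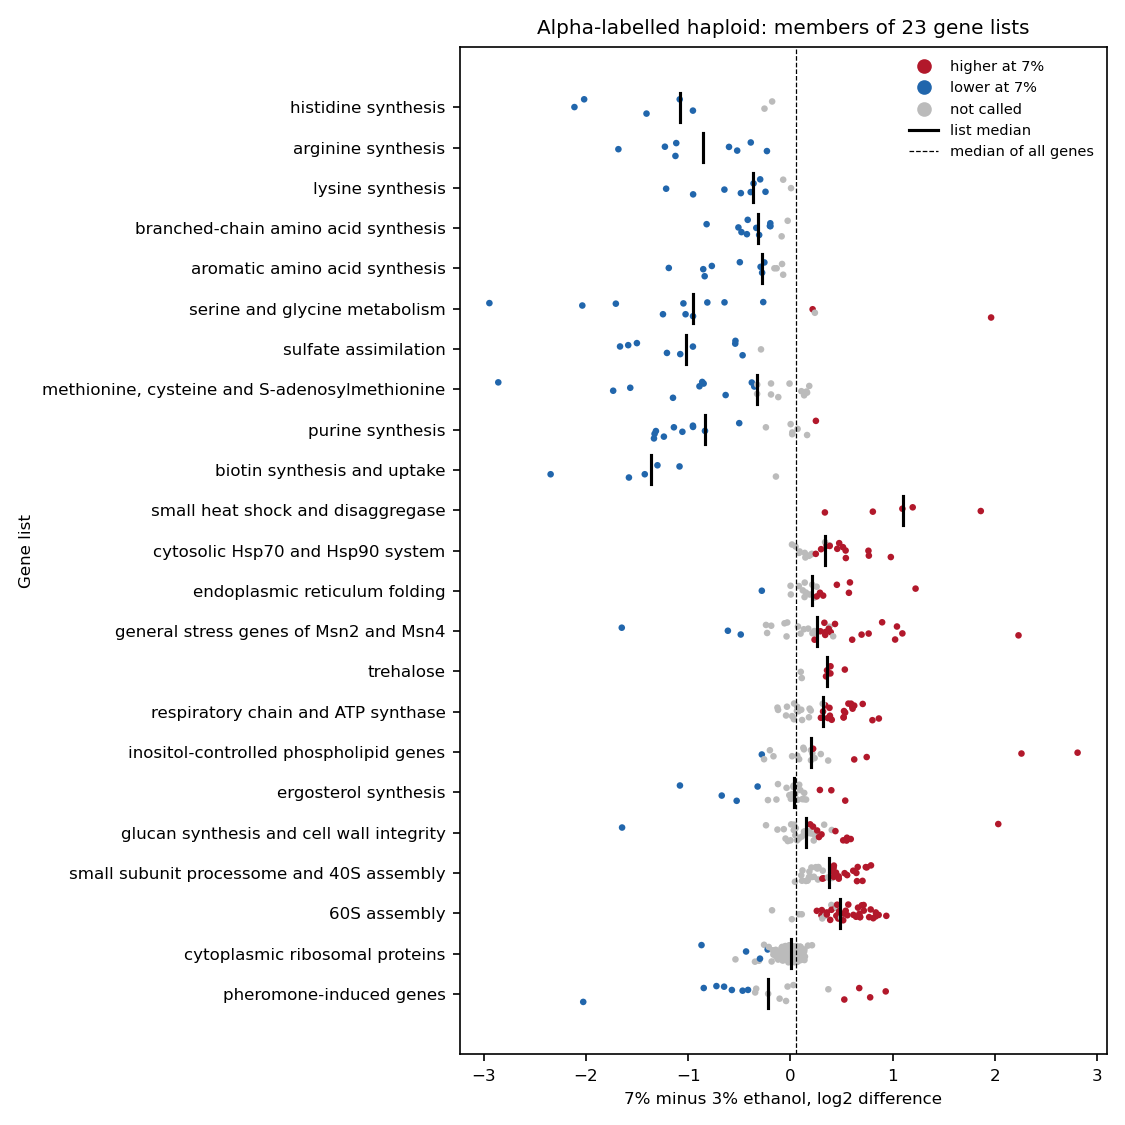
Differences between 7% and 3% ethanol (log2, horizontal axis) for the measured members of 23 gene lists in the alpha-labelled haploid, 1 point per gene, red where higher, blue where lower and grey where not called, with a black bar at the list median and a dashed line at the median of all genes (0.05). Biotin (median -1.36), histidine (-1.08) and sulfate genes (-1.02) lie to the left, small heat shock proteins (1.10) and 60S assembly factors (0.48) to the right, and ribosomal proteins (0.01) at the dashed line.

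Genes of phospholipid metabolism that inositol represses held 2 of the 5 largest rises. GIT1 (YCR098C), which takes up glycerophosphoinositol, read 188 and 164 at 7%, against 13.2 and 9.65 at 3%. INO1 (YJL153C), which makes inositol phosphate from glucose phosphate, read 204 and 167 at 7%, against 26.7 and 25.0 at 3%. In both genes the arrays at 3% were dim and those at 7% clearly higher. GIT1 rose by 2.81 ± 0.14, or 7.01-fold (adjusted p = 4.6e-12), and INO1 by 2.26 ± 0.17, or 4.79-fold (adjusted p = 1.4e-09). CHO1, phosphatidylserine synthase, read 1192 and 1302 at 7% and 693 and 783 at 3% and rose by 0.75 ± 0.084 (adjusted p = 7.71e-07). OPI3, a methyltransferase of phosphatidylcholine synthesis, rose by 0.62 ± 0.076 (adjusted p = 2.49e-06) and the inositol carrier ITR1 by 0.22 ± 0.067 (adjusted p = 0.0167).

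Of the 20 genes of this list 5 rose and 1 fell (median 0.20). ECT1 of the ethanolamine pathway fell by 0.28 ± 0.098 (adjusted p = 0.0394). That call ended without scaling and when any single array was left out, and the falls were 4 with median centring and 3 with quantile normalization. Of the regulators, the activator INO2 was at 0.30 ± 0.12 (adjusted p = 0.0697), its partner INO4 at 0.37 ± 0.16 (adjusted p = 0.0986) and the repressor OPI1 at 0.13 ± 0.14 (adjusted p = 0.528), all without a call.

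Phosphate genes overlapped with this group through GIT1. PHM8 (YER037W), a phosphatase of lysophosphatidic acid and nucleotides that phosphate starvation induces, read 218 and 223 at 7%, against 42.9 and 49.0 at 3%. The rise was 1.93 ± 0.15, or 3.82-fold (adjusted p = 2.09e-09). Of 24 phosphate genes 7 rose and 2 fell (median 0.07). Without scaling 3 rose, with median centring 6 fell, and 0 fell without 7% replicate 2 or without 3% replicate 1. PHO81, the inhibitor of the Pho80 and Pho85 kinase, rose by 0.67 ± 0.099 (adjusted p = 3.06e-05), PHO4, the activator, fell by 0.60 ± 0.16 (adjusted p = 0.00781), and PHM6 fell by 0.43 ± 0.13 (adjusted p = 0.019). PHO84, the main phosphate carrier, was at 0.08 ± 0.11 (adjusted p = 0.619).

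Sterol synthesis genes moved in both directions. Of 25 ergosterol genes 3 rose and 4 fell (median 0.03), a share near the 26.6% of all genes called in either direction. ERG4, which carries out the last step, read 882 and 850.2 at 7%, against 1840.0 and 1861 at 3%, and fell by 1.08 ± 0.077 (adjusted p = 9.79e-10). Both activators of the pathway fell, ECM22 by 0.67 ± 0.099 (adjusted p = 2.93e-05) and UPC2 by 0.53 ± 0.12 (adjusted p = 0.00202). HMG1, the main HMG-CoA reductase, rose by 0.54 ± 0.11 (adjusted p = 0.00116), ERG20 by 0.40 ± 0.069 and ERG1 by 0.29 ± 0.083, none of which was called without scaling. With quantile normalization 5 rose.

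Of 14 genes of fatty acid synthesis and activation 2 rose and 0 fell. FAA1, the main acyl-CoA synthetase for imported fatty acids, read 210.4 and 189 at 7%, against 70.2 and 65.2 at 3%, and rose by 1.36 ± 0.13 (adjusted p = 4.95e-08), and FAA3 rose by 0.72 ± 0.13 (adjusted p = 0.000327). OLE1, the desaturase that sets membrane unsaturation, was at 0.06 ± 0.085 (adjusted p = 0.632), and FAS1, a subunit of fatty acid synthase, at 0.05 ± 0.062 (adjusted p = 0.589). Of 23 sphingolipid genes 5 rose and 2 fell, and IPT1, the last enzyme of the pathway, rose by 0.60 ± 0.11 (adjusted p = 2e-04), though only 1 member rose without scaling and 3 with median centring or when any single array was left out. The falls were 1 without 7% replicate 1 and 0 without 7% replicate 2 or 3% replicate 1. The proton pump PMA1, a main target of ethanol at the membrane, was at 0.03 ± 0.073 (adjusted p = 0.778).

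All 5 measured small heat shock and disaggregase genes rose (median 1.10). HSP26 (YBR072W), which holds unfolding proteins, read 990.3 and 972 at 7%, against 254 and 262 at 3%. The 4 arrays fell into tight pairs, and the rise was 1.86 ± 0.10, or 3.63-fold (adjusted p = 1.81e-11). At 0% it read 93.1 and 74.5, so HSP26 stepped up at 3% and again at 7%. HSP31, a chaperone and methylglyoxalase, rose by 1.20 ± 0.066, HSP12, a membrane stabiliser, by 1.09 ± 0.13 and HSP42 by 0.81 ± 0.11 (adjusted p at most 1.1e-05). The disaggregase HSP104 rose by 0.34 ± 0.098 (adjusted p = 0.0143). The count was 4 without scaling and 4 with median centring.

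Cytosolic chaperones rose more modestly. Of 23 genes of the Hsp70 and Hsp90 systems 12 rose and 0 fell (median 0.34), and 4 rose without scaling. HSP82, the inducible Hsp90, read 1098 and 989.7 at 7%, against 499.9 and 540.5 at 3%, and rose by 0.98 ± 0.086 (adjusted p = 1.97e-08). Its partners CPR6 and STI1 rose by 0.48 ± 0.077 and 0.46 ± 0.087 (adjusted p = 8.4e-05 and 0.000423). SSA1, a main Hsp70, rose by 0.54 ± 0.07 and the exchange factor SSE2 by 0.77 ± 0.11 (adjusted p = 6.04e-06 and 1.63e-05). HSC82, the constant Hsp90, was at 0.01 ± 0.067 (adjusted p = 0.895) and the heat shock factor HSF1 at 0.20 ± 0.13 (adjusted p = 0.282).

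In the endoplasmic reticulum 7 of 19 folding genes rose and 1 fell (median 0.21). ERO1, the oxidase that makes disulfide bonds, read 1246 and 1284 at 7%, against 531 and 533 at 3%, and rose by 1.22 ± 0.13 (adjusted p = 2.51e-07). SIL1 rose by 0.58 ± 0.093, MPD1 by 0.57 ± 0.092 and the Hsp70 KAR2 by 0.29 ± 0.073 (adjusted p at most 0.00557). ERV2, another thiol oxidase, fell by 0.28 ± 0.097 (adjusted p = 0.037), a call that ended without scaling, without either 7% array and without 3% replicate 1. The count of rises was 1 without scaling, 4 with median centring, and 4 without 7% replicate 1 or 7% replicate 2. Of 10 mitochondrial chaperones 0 rose and 1 fell, HSP78, the mitochondrial disaggregase, by 0.85 ± 0.10 (adjusted p = 3.31e-06). Without 7% replicate 2 there were 2 of each, and without scaling 2 falls.

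YRO2 (YBR054W), a membrane protein related to Hsp30, read 1929 and 1911 at 7%, against 697 and 721 at 3%, and rose by 1.42 ± 0.089 (adjusted p = 1.2e-10). At 0% it read 176 and 169. HSP30 itself, which dampens the proton pump under stress, read 93.8 and 89.1 at 7% and 24.2 and 32.0 at 3% and rose by 1.29 ± 0.13 (adjusted p = 1.41e-07). The third relative, MRH1, was at 0.16 ± 0.081 (adjusted p = 0.152).

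Genes of the general stress response, under Msn2 and Msn4, rose in part. Of 34 genes 16 rose and 3 fell (median 0.26), and 8 rose without scaling. SPI1 (YER150W), a cell wall protein tied to weak acid resistance, read 1285 and 1414 at 7%, against 281 and 269 at 3%. SPI1 rose by 2.23 ± 0.095, or 4.69-fold (adjusted p = 3.91e-13). Glycogen phosphorylase, GPH1, rose by 1.04 ± 0.095, the mitochondrial peroxiredoxin PRX1 by 1.02 ± 0.11 and glutamate decarboxylase, GAD1, by 0.90 ± 0.1 (adjusted p at most 7e-07).

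Among these genes NCE103, carbonic anhydrase, fell by 1.65 ± 0.099 (adjusted p = 6.35e-11), TMA10 by 0.61 ± 0.12 and GTT1, a glutathione transferase, by 0.49 ± 0.093. MSN2 was at 0.21 ± 0.10 (adjusted p = 0.141) and MSN4 at -0.06 ± 0.12 (adjusted p = 0.77).

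Trehalose genes rose by small steps: 5 of 7 rose and 0 fell (median 0.36). TPS1, the synthase, read 1157 and 1094 at 7% and 922 and 791 at 3% and rose by 0.39 ± 0.074 (adjusted p = 0.000433). TSL1 and TPS2 of the same complex rose by 0.36 ± 0.081 and 0.35 ± 0.076, and NTH1, which splits trehalose, by 0.53 ± 0.088 (adjusted p = 0.000108). None of the 7 was called without scaling, and 3 were without 3% replicate 2. Glycogen genes were mixed, with 4 rises and 2 falls of 15. The rises were 2 without scaling, without 7% replicate 1 and without 3% replicate 2, and the falls 6 with median centring and 5 with quantile normalization. GSY1, a glycogen synthase, fell by 0.93 ± 0.095 (adjusted p = 1.89e-07) and GLG1, which primes the polymer, by 1.05 ± 0.12 (adjusted p = 5.69e-07). Among the rises were GPH1, given above, and GAC1, a phosphatase subunit, at 0.77 ± 0.13 (adjusted p = 0.000107).

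Oxidative defence was mixed as well, with 9 rises and 5 falls of 28 (median -0.06). AHP1, a peroxiredoxin for alkyl peroxides, read 3973 and 4163 at 7%, against 1881 and 2100.0 at 3%, and rose by 1.03 ± 0.089 (adjusted p = 1.66e-08). SOD2, the mitochondrial superoxide dismutase, rose by 0.86 ± 0.099 (adjusted p = 1.09e-06). The glutaredoxin GRX4 fell by 0.60 ± 0.13 (adjusted p = 0.00184), and GRX5, DOT5, TRR1 and GLR1 fell by 0.41, 0.31, 0.28 and 0.28. The falls were 3 when any single array was left out, and the rises 5 without scaling. YAP1, the regulator, was at 0.14 ± 0.12 (adjusted p = 0.426).

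At the cell wall, 11 of 37 genes of glucan synthesis and wall integrity rose and 1 fell (median 0.15). GSC2 (YGR032W), the stress-induced catalytic subunit of beta-glucan synthase, read 1931 and 1851 at 7%, against 467 and 434 at 3%. Its groups were far apart and the rise was 2.03 ± 0.092, or 4.09-fold (adjusted p = 8.06e-13). FKS1, the subunit used in normal growth, was at 0.11 ± 0.066 (adjusted p = 0.233). UTR2, which links chitin to glucan, read 434 and 386 at 7%, against 1396 and 1244 at 3%, and fell by 1.65 ± 0.079 (adjusted p = 1.92e-12). The wall proteins SED1 and PST1 rose by 0.52 ± 0.088 and 0.44 ± 0.077 (adjusted p = 0.000138 and 0.000181), and SLT2, the kinase of the integrity pathway, was at -0.13 ± 0.099 (adjusted p = 0.382). The count of rises was 3 without scaling, 6 with median centring, 6 without 3% replicate 2 and 7 without 7% replicate 1.

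PRY3 (YJL078C), a cell wall protein of the CAP family, had the largest fall after HXT2 and SER3. It read 36.9 and 37.0 at 7%, against 436 and 315 at 3%. PRY3 fell by 2.87 ± 0.16, or 7.31-fold (adjusted p = 2.29e-11). Of 12 genes of daughter cell separation 3 fell and 5 rose. DSE4, a daughter glucanase, fell by 0.99 ± 0.21 (adjusted p = 0.00138) and SUN4 by 0.41 ± 0.11. ASH1, the daughter-specific repressor of HO, rose by 0.70 ± 0.11 (adjusted p = 5.87e-05) and the wall protein DSE2 by 0.89 ± 0.15 (adjusted p = 0.000134). The falls were 1 without 7% replicate 2 and the rises 2 without scaling. Of 16 genes of anaerobic and hypoxic growth 4 fell and 1 rose. AUS1, a sterol importer, fell by 1.28 ± 0.11 (adjusted p = 2.01e-08), and PAU23, a cell wall mannoprotein, rose by 0.39 ± 0.14 (adjusted p = 0.0385). With median centring 7 fell and 0 rose, and the call of PAU23 also ended without scaling, without either 7% array and without 3% replicate 2.

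CIT2 (YCR005C) had the largest rise after FLO11 and GIT1. It encodes the citrate synthase of peroxisomes and is the usual reporter of signalling from mitochondria to the nucleus. CIT2 read 1697 and 1625 at 7%, against 325 and 242 at 3%. Both arrays at 3% lay far below those at 7%, and the rise was 2.50 ± 0.11, or 5.65-fold (adjusted p = 7.04e-13). Its level at 0% was 142 and 139, so each step of ethanol brought a higher level. CIT1, the mitochondrial synthase, rose by 0.80 ± 0.072 (adjusted p = 3e-08) and DLD3, another gene of the same signalling, by 0.55 ± 0.089 (adjusted p = 8.07e-05). The regulators RTG1 and RTG3 were at 0.26 ± 0.17 and -0.15 ± 0.14 (adjusted p = 0.286 and 0.47). Of 29 genes of the citric acid cycle, the glyoxylate cycle and this signalling, 7 rose and 3 fell (median 0.09). Without scaling 3 rose, and the falls were 7 with median centring, 5 with quantile normalization and 1 without 7% replicate 2. PYC2, a pyruvate carboxylase, fell by 1.01 ± 0.082 (adjusted p = 6.29e-09), MLS1 of the glyoxylate cycle by 0.45 ± 0.12 and LPD1, a dehydrogenase subunit, by 0.28 ± 0.072.

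Respiratory chain genes rose by small steps. Of 37 genes 21 rose and 0 fell (median 0.32). CYT1, cytochrome c1, read 836 and 824 at 7%, against 428 and 469 at 3%, and rose by 0.86 ± 0.092 (adjusted p = 3.69e-07). The complex III proteins QCR2, RIP1 and COR1 rose by 0.80 ± 0.11, 0.60 ± 0.074 and 0.52 ± 0.079 (adjusted p at most 3.49e-05), and ATP5 of the ATP synthase by 0.52 ± 0.07 (adjusted p = 9.12e-06). The count was 11 without scaling and 12 without 7% replicate 2. NCA3 (YJL116C), a protein of the SUN family linked to mitochondria, read 476 and 497 at 7%, against 85.5 and 88.0 at 3%, and rose by 2.29 ± 0.10, or 4.89-fold (adjusted p = 8.06e-13).

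Genes that make or use ethanol and acetaldehyde had 3 rises and 4 falls of 22. ADR1 (YDR216W), the activator of ethanol use, read 166 and 146 at 7%, against 53.2 and 35.0 at 3%, and rose by 1.53 ± 0.20 (adjusted p = 6.03e-06). ADH2, the dehydrogenase that ADR1 activates for ethanol use, was at 0.03 ± 0.13 (adjusted p = 0.904). ALD4, the main mitochondrial aldehyde dehydrogenase, rose by 1.21 ± 0.068 (adjusted p = 2.41e-11), and SFA1, which also detoxifies formaldehyde, by 0.43 ± 0.071. ALD5, a minor mitochondrial aldehyde dehydrogenase, fell by 1.70 ± 0.072 (adjusted p = 3.64e-13) and BDH1, butanediol dehydrogenase, by 1.10 ± 0.081 (adjusted p = 1.45e-09), followed by ADH5, which fell by 0.61 ± 0.064. The fermentative enzymes ADH1 and PDC1 were at 0.13 ± 0.079 and 0.19 ± 0.077 (adjusted p = 0.253 and 0.07).

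Factors that assemble ribosomes rose, while ribosomal proteins stayed near the median of all genes. Of 45 factors for the 60S subunit 35 rose and 0 fell (median 0.48). YTM1, of the module that remodels the early particle, read 357 and 323 at 7%, against 181 and 159 at 3%, and rose by 0.94 ± 0.12 (adjusted p = 3e-06). The GTPases NUG1 and NOG1 rose by 0.81 ± 0.11 and 0.79 ± 0.11 (adjusted p = 8.56e-06 and 2.23e-05). Of 42 genes of the small subunit processome and 40S assembly 20 rose and 0 fell (median 0.38). NOC4 rose by 0.79 ± 0.11, UTP15 by 0.65 ± 0.099 and the nucleolin NSR1 by 0.56 ± 0.098 (adjusted p at most 0.000214). Without scaling 17 and 8 rose in these 2 lists, and the 40S count was 10 without 7% replicate 1, 11 without 3% replicate 2 and 13 without 7% replicate 2.

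Of 127 cytoplasmic ribosomal protein genes 0 rose and 4 fell (median 0.01). RPS14B fell by 0.87 ± 0.075 (adjusted p = 1.66e-08) and RPL15B by 0.43 ± 0.11 (adjusted p = 0.00709). Both have a near-identical copy elsewhere in the genome, RPS14A and RPL15A, which were at 0.13 ± 0.066 and 0.01 ± 0.077 (adjusted p = 0.166 and 0.946), and RNA of a copy may bind the other's probes. The count of falls was 8 without scaling, 8 with quantile normalization, 2 without 7% replicate 1, 7% replicate 2 or 3% replicate 2, and 9 without 3% replicate 1. Of 24 genes of RNA polymerases I and III 6 rose, with RRN3, the initiation factor of polymerase I, at 0.81 ± 0.13 (adjusted p = 5.3e-05). The count was 1 without scaling, 3 with median centring, 1 without 7% replicate 1 and 2 without 3% replicate 2. Among 67 mitochondrial ribosomal proteins there were 17 rises and 0 falls (median 0.15), with 2 rises unscaled, 10 with median centring, 3 without 3% replicate 2, 6 without 7% replicate 1 and 9 without 7% replicate 2.

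Among G1 cyclins and regulators of Start, 5 of 17 rose and 0 fell. CLN2, a G1 cyclin, read 1145 and 1135 at 7%, against 675 and 596 at 3%, and rose by 0.83 ± 0.12 (adjusted p = 1.42e-05). CLN3, which triggers Start, rose by 0.68 ± 0.12 and CLN1 by 0.40 ± 0.11 (adjusted p = 0.000146 and 0.00961), while WHI5, the inhibitor, was at -0.09 ± 0.19 (adjusted p = 0.766). The count was 3 without scaling, without 7% replicate 2 and without 3% replicate 2. In the proteasome 5 of 34 genes rose, a share near the 16.6% of all genes, and RPN4, its activator, was at 0.26 ± 0.10 (adjusted p = 0.0677). The proteasome count was 1 without scaling, 2 with median centring, 2 without 3% replicate 2 and 3 without either 7% array.

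FUS1 (YCL027W), a membrane protein that fuses mating cells and a standard reporter of pheromone signalling, was among the largest falls. FUS1 read 28.1 and 33.0 at 7%, against 177 and 169.6 at 3%. The arrays of each group were close, and FUS1 fell by 2.03 ± 0.15, or 4.08-fold (adjusted p = 1.2e-09). At 0% FUS1 read 97.0 and 96.6, between the levels at 3% and 7%. Of 19 genes that pheromone induces 7 fell and 4 rose (median -0.22). FIG1 fell by 0.85 ± 0.14, FIG2, a mating agglutinin, by 0.72 ± 0.12 and SST2, which damps the signal, by 0.57 ± 0.11 (adjusted p = 9.63e-05, 0.000162 and 0.000421). The count of falls was 4 without 7% replicate 2. PRM5, a target of the cell wall pathway as well, rose by 0.93 ± 0.11 (adjusted p = 1.04e-06), and PRM4, PRM3 and the glucanase SCW10 rose by 0.78, 0.67 and 0.53. STE12, the activator of these genes, was at -0.22 ± 0.094 (adjusted p = 0.0939).

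Genes that define alpha cells moved apart from each other. The gene of the a-factor receptor, STE3, read 1197 and 1171 at 7%, against 1995 and 2081 at 3%, and fell by 0.78 ± 0.089 (adjusted p = 1.09e-06). MF(ALPHA)2, the minor alpha-factor gene, read 2162 and 2252 at 7%, against 3157 and 3474 at 3%, and fell by 0.58 ± 0.11 (adjusted p = 0.000488). SAG1, alpha-agglutinin, rose by 0.27 ± 0.092 (adjusted p = 0.0341), a call that ended without scaling, with median centring and when any single array was left out, and MF(ALPHA)1 was at 0.14 ± 0.12 (adjusted p = 0.402). FAR1, which arrests the cycle for mating, fell by 0.45 ± 0.12 (adjusted p = 0.00869), the only call among 11 haploid-specific genes. That call ended without 7% replicate 2 and without 3% replicate 1, and 2 members fell with median centring or quantile normalization.

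Transporters of drugs and acids fell and rose in like numbers, 5 and 4 of 18. ATR1 fell by 1.02 ± 0.094 (adjusted p = 4.02e-08) and the pump SNQ2 by 0.88 ± 0.087 (adjusted p = 1.22e-07). PDR5 and the acid exporter PDR12 fell by 0.59 ± 0.093 and 0.72 ± 0.11 (adjusted p = 6.43e-05 and 3.24e-05). RSB1, which moves sphingoid bases across the membrane, rose by 1.06 ± 0.11 (adjusted p = 3.87e-07) and the exporter FLR1 by 0.69 ± 0.097 (adjusted p = 1.48e-05). Among metal genes, 5 of 26 iron genes and 2 of 13 zinc genes rose, both near the 16.6% of all genes. Falls numbered 0 and 3, beside 10.1% of all genes. AFT1, the activator of iron uptake genes, rose by 0.55 ± 0.16 (adjusted p = 0.0156). The iron count was 3 without scaling, with quantile normalization and without 3% replicate 1, and 2 without any other array. The zinc rises were 1 without scaling, with median centring and without 7% replicate 2 or 3% replicate 2. The zinc carrier ZRT2 fell by 0.76 ± 0.088 (adjusted p = 1.3e-06).

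The remaining lists are given by their counts, beside rises in 16.6% and falls in 10.1% of all genes. Exporters of amino acids and acids had 3 rises and 3 falls of 9. Glycerol genes had 4 rises and 1 fall of 10. The glycerol rises were 1 without scaling and 2 with median centring or without either 3% array, and the fall was lost with quantile normalization and without 7% replicate 1, 7% replicate 2 or 3% replicate 1. Genes of gluconeogenesis and sugar uptake that glucose represses had 6 rises and 3 falls of 22, the falls being 1 without 3% replicate 1, and peroxisomal genes had 4 rises and 4 falls of 31. Histones had 1 rise and 1 fall of 10, meiotic genes 2 rises and 0 falls of 22, and genes of ribonucleotide reductase and DNA damage 1 rise and 2 falls of 13. Without scaling the rises were 0 in each of these 3 lists, and histones had 3 falls with median centring. The rises were also lost without 7% replicate 2, and those of histones and meiotic genes without 3% replicate 2. The falls of histones and of ribonucleotide reductase and DNA damage genes changed in number when single arrays were left out. Of the 19 cytosolic tRNA synthetases 1 fell, GLN4, by 0.29 ± 0.098 (adjusted p = 0.0294), a call lost without scaling and without 7% replicate 2 or 3% replicate 1, and 5 fell with median centring. Of 18 subunits and assembly factors of the vacuolar ATPase 2 fell, VMA21 by 0.35 ± 0.11 and VPH2 by 0.35 ± 0.12 (adjusted p = 0.0275 and 0.0323). These falls were 0 without 3% replicate 1 and 1 without 7% replicate 1 or 3% replicate 2. Pumps and ion carriers of the plasma membrane had 2 rises and 0 falls of 12, with 0 rises unscaled and 1 when any single array was left out.

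Other large changes were in genes outside these lists. AAD6 (YFL056C), a putative aryl alcohol dehydrogenase, read 171 and 172 at 7%, against 48.5 and 60.3 at 3%, and rose by 1.42 ± 0.13 (adjusted p = 4.33e-08). YOR289W read 199 and 193 at 7%, against 56.0 and 57.8 at 3%, and rose by 1.54 ± 0.11 (adjusted p = 1.35e-09). YJL047C-A read 466 and 402 at 7%, against 140.0 and 147 at 3%, and rose by 1.49 ± 0.14 (adjusted p = 4.71e-08). The products of YOR289W and YJL047C-A are little characterised.

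TMT1 (YER175C), which methylates trans-aconitate, read 139.5 and 172 at 7%, against 628 and 592 at 3%, and fell by 1.87 ± 0.11 (adjusted p = 6.03e-11). ATG41 (YPL250C), a factor of autophagosome formation, read 334 and 407 at 7%, against 1095 and 1433 at 3%, and fell by 1.72 ± 0.14 (adjusted p = 5e-09). Of 24 other autophagy genes 2 fell and 1 rose (median 0.06), and ATG1, the starting kinase, fell by 0.58 ± 0.12 (adjusted p = 0.0011). The falls were 1 without 7% replicate 2 and 1 without 3% replicate 1, and the rises 2 without 7% replicate 1 and 2 without 3% replicate 1.

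Set against growth without ethanol, the 30 genes of largest change fell into a few patterns, described here without a test. SPI1 read 324 and 262 at 0%, 281 and 269 at 3% and 1285 and 1414 at 7%, so that the first step left it in place. INO1, at 31.4 and 25.3 without ethanol, PHM8, at 39.4 and 64.1, and AAD6, at 47.0 and 64.2, overlapped their 3% arrays in the same way. NCA3 read 46.4 and 42.7 at 0%, 85.5 and 88.0 at 3% and 476 and 497 at 7%, and GSC2 read 250.1 and 241, 467 and 434 and 1931 and 1851 at the same levels. Both genes were higher at each step.

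Among the falls, BIO3 read 403 and 388 at 0%, 340.2 and 329 at 3% and 57.6 and 48.7 at 7%. NRT1, at 189.5 and 275 without ethanol, and ATG41, at 1297 and 1269, overlapped their 3% arrays, as SER3 nearly did at 1035 and 1011. SRY1 read 1221 and 1190.0 at 0%, 349 and 312 at 3% and 66.2 and 70.5 at 7%, and TMT1 read 1323 and 1324, 628 and 592 and 139.5 and 172. HIS5, at 2646 and 2396 without ethanol, STR2, at 1120.0 and 1252, and PRY3, at 891 and 704, were also lower at each step.

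The difference between 7% and 3% in the alpha-labelled strain was set against the same difference in the other strains by testing the difference of the 2 changes in the same fit. Against the strain labelled a, the change was more positive in the alpha-labelled strain in 101 genes (1.88%) and more negative in 241 (4.49%). Against the diploid, it was more positive in 345 genes (6.43%) and more negative in 499 (9.3%). These splits moved with the scaling. For the strain labelled a they were 146 and 151 with median centring, 134 and 147 with quantile normalization and 25 and 155 unscaled. Against the diploid they were 515 and 365, 406 and 456, and 124 and 226 under the same settings. These comparisons use the same 4 alpha arrays, so they are not independent of each other. The strain labelled a had 1495 rises (27.9%) and 538 falls (10.0%) at 7% against 3%. The diploid had 1464 rises (27.3%) and 880 falls (16.4%). List counts in the comparisons of strains below are to be read beside the shares of all genes given here.

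FLO11 and HXT2, the extremes of the step, differed most from both other strains. FLO11 read 45.9 and 31.1 at 7% and 35.9 and 51.1 at 3% in the strain labelled a, and 30.6 and 30.8 at 7% and 24.8 and 22.3 at 3% in the diploid. All of these were near the dim 3% level of the alpha-labelled strain. The alpha change exceeded that of the strain labelled a by 4.15 ± 0.21 (adjusted p = 6.95e-11) and that of the diploid by 3.78 ± 0.21 (adjusted p = 3.98e-10). HXT2 read 875 and 781 at 7% and 431 and 516 at 3% in the strain labelled a, where it rose by 0.79 ± 0.11. In the diploid it read 352 and 430.5 at 7% and 439 and 453 at 3%, a difference of -0.19 ± 0.11 (adjusted p = 0.185). The difference of changes was -3.83 ± 0.16 against the strain labelled a (adjusted p = 2.1e-12) and -2.85 ± 0.16 against the diploid (adjusted p = 3.98e-10).

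Some genes rose in the alpha-labelled strain and fell in the diploid, and most of these fell in the strain labelled a as well. TPO4, a polyamine exporter, read 446 and 433 at 7% and 224 and 257 at 3% in the alpha-labelled strain and rose by 0.83 ± 0.093 (adjusted p = 7.55e-07). In the strain labelled a it fell by 0.55, a difference of changes of 1.38 ± 0.13 (adjusted p = 1.03e-06). In the diploid it fell by 0.95, a difference of 1.78 ± 0.13 (adjusted p = 1.49e-08). CYC1, the main cytochrome c, read 176 and 177 at 7% and 115 and 108 at 3% in the alpha-labelled strain, below all arrays of the other strains at any level. It rose by 0.59 ± 0.14 (adjusted p = 0.0043). In the strain labelled a CYC1 fell by 0.70 and in the diploid by 1.17, differences of 1.30 ± 0.21 and 1.77 ± 0.21 (adjusted p = 0.000375 and 4.86e-06). YER053C-A rose by 1.02 ± 0.11, and the differences were 1.74 ± 0.15 and 2.15 ± 0.15 (adjusted p = 3.83e-07 and 1.38e-08). HMG1 fell by 1.35 in the diploid and by 0.52 in the strain labelled a, and its difference was 1.89 ± 0.16 against the diploid (adjusted p = 6.97e-08). YLR108C rose by 0.79 ± 0.16 and fell by 0.79 in the diploid, with a difference of 1.58 ± 0.23 (adjusted p = 4.96e-05), and was at 0.04 ± 0.16 in the strain labelled a (adjusted p = 0.877).

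Other differences lay in genes that changed in the strain labelled a, and some of these changed in the diploid as well. MF(ALPHA)2 read 535 and 578 at 7% and 2608 and 2896 at 3% in the strain labelled a, where it fell by 2.27, so that the difference of changes was 1.69 ± 0.16 (adjusted p = 8.67e-07). ZPS1, a wall protein that zinc shortage induces, was at 0.00 ± 0.11 in the alpha-labelled strain (adjusted p = 0.993) and fell by 1.38 in the strain labelled a, a difference of 1.38 ± 0.16 (adjusted p = 8.43e-06). SUT1, a regulator of sterol uptake, was at -0.09 ± 0.13 in the alpha-labelled strain (adjusted p = 0.651) and rose by 2.10 in the strain labelled a, a difference of -2.19 ± 0.19 (adjusted p = 2.31e-07). MPC3, a subunit of the mitochondrial pyruvate carrier, was at 0.25 ± 0.12 (adjusted p = 0.132) and rose by 1.99 in the strain labelled a, a difference of -1.74 ± 0.17 (adjusted p = 1.64e-06). YKR075C was at 0.05 ± 0.16 (adjusted p = 0.865), with a difference of -1.67 ± 0.23 (adjusted p = 6.42e-05). In the diploid SUT1, MPC3 and YKR075C also rose, by 1.12, 1.42 and 1.40. Their changes in the alpha-labelled strain differed from those by -1.21 ± 0.19, -1.17 ± 0.17 and -1.36 ± 0.23 (adjusted p = 0.000111, 6.61e-05 and 0.000262). ZPS1 fell by 0.39 in the diploid, a difference of 0.39 ± 0.16 (adjusted p = 0.102).

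Sulfur genes differed between the haploid strains. MET3 fell in the alpha-labelled strain and rose by 0.45 in the strain labelled a, a difference of -2.04 ± 0.15 (adjusted p = 4.74e-08). MET2, homoserine acetyltransferase, read 60.6 and 48.0 at 7% and 138 and 93.5 at 3% and fell by 0.89 ± 0.14 (adjusted p = 4.94e-05), and it rose by 0.73 in the strain labelled a, a difference of -1.62 ± 0.19 (adjusted p = 1.95e-05). Of the 10 sulfate genes, 7 had a more negative change in the alpha-labelled strain than in the strain labelled a and 0 a more positive one, with list medians of -1.02 and 0.06. Against the diploid (median -0.86), 2 were more negative and 1 more positive, the last lost when any array but alpha 7% replicate 1 was left out. Of 6 biotin genes 4 were more negative than in the strain labelled a and 3 than in the diploid, with medians of -1.36, -0.73 and -0.53. The first of these counts was 2 without 7% replicate 2 of the strain labelled a.

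**Figure D4:**
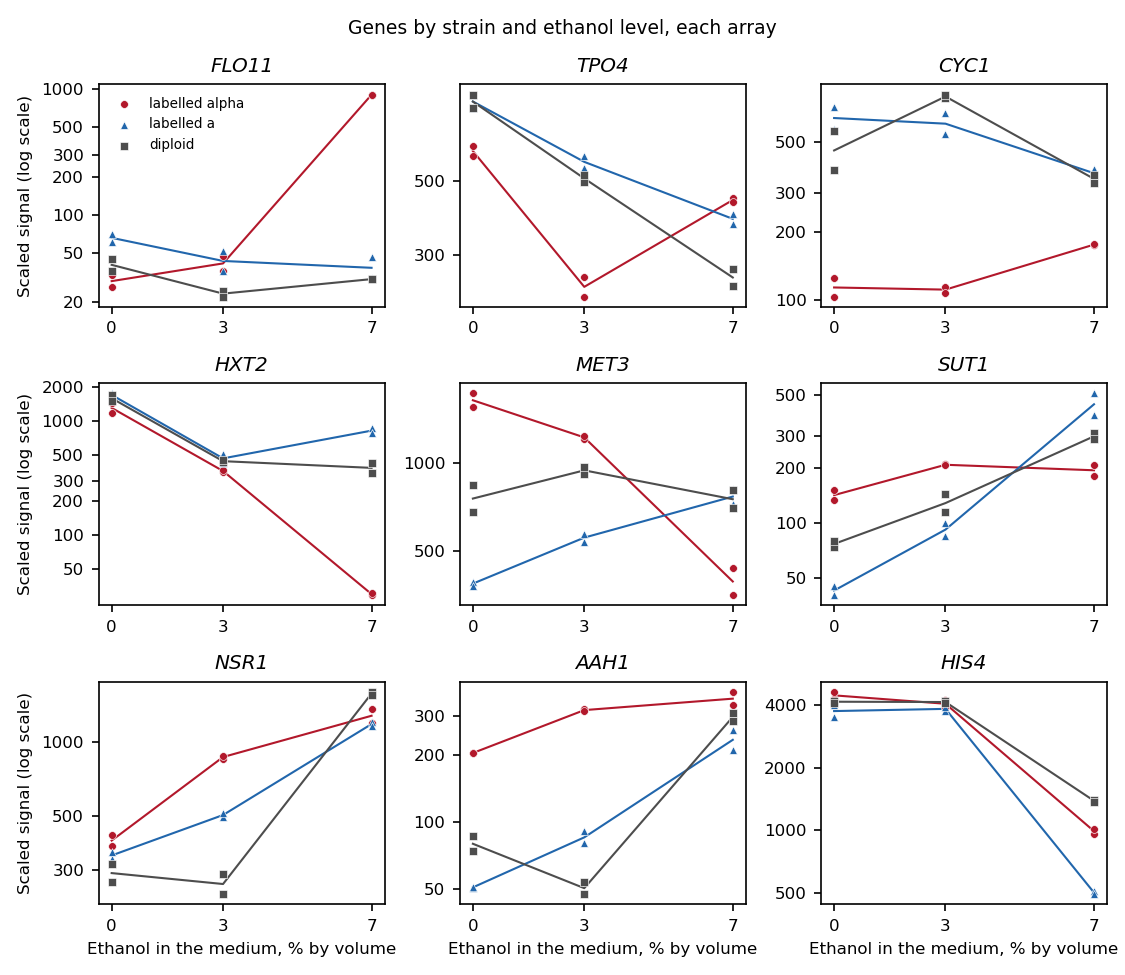
Scaled signal (log axis) of 9 genes at 0%, 3% and 7% ethanol in the alpha-labelled strain (red circles), the strain labelled a (blue triangles) and the diploid (grey squares), 1 symbol per array and a line through the geometric mean of each pair. FLO11 leaves the other strains at 7% in the alpha-labelled strain alone (910.3 and 907 against 31.1 to 45.9 in the strain labelled a and 30.6 to 30.8 in the diploid), HXT2 drops there, and HIS4 falls at 7% in all 3 strains.

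Ribosome assembly rose less in the alpha-labelled strain than in the diploid. NSR1 read 1369 and 1205 at 7% and 857 and 882 at 3% in the alpha-labelled strain, and 1607 and 1564 at 7% and 238 and 288 at 3% in the diploid. The diploid started lower at 3% and ended higher at 7%, and the difference of changes was -1.97 ± 0.14 (adjusted p = 1.38e-08). DBP2, an RNA helicase of the 60S list, differed by -1.79 ± 0.14 (adjusted p = 4.21e-08). Of 45 60S factors 35 had a less positive change than in the diploid and 0 a more positive one, with medians of 0.48 and 1.5. In the 40S list the count was 35 of 42, with medians of 0.38 and 1.11. In the test with the strain labelled a, 4.49% of all genes had a more negative change. There 4 of the 60S and 2 of the 40S genes had less positive changes, the 40S count near that share. The medians in that strain were 0.79 and 0.67. The 4 became 0 without scaling and 1 without alpha 7% replicate 2, and the 2 ran from 1 to 6 when single arrays were left out.

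AAH1 and URA7 of nucleotide metabolism likewise had less positive changes than in the diploid. AAH1, adenine deaminase, read 334 and 382 at 7% and 319.5 and 316 at 3%, a difference of 0.16 ± 0.11 (adjusted p = 0.322), and 309 and 284 at 7% and 53.8 and 47.7 at 3% in the diploid. The difference of changes was -2.06 ± 0.16 (adjusted p = 3.08e-08). URA7, a CTP synthase, read 575 and 597 at 7% and 398 and 426 at 3%, and 593 and 583 at 7% and 101 and 90.3 at 3% in the diploid, with a difference of -1.94 ± 0.14 (adjusted p = 1.44e-08). ECL1, a small protein tied to chronological lifespan, differed by -1.76 ± 0.18 (adjusted p = 8.16e-07).

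**Figure D5:**
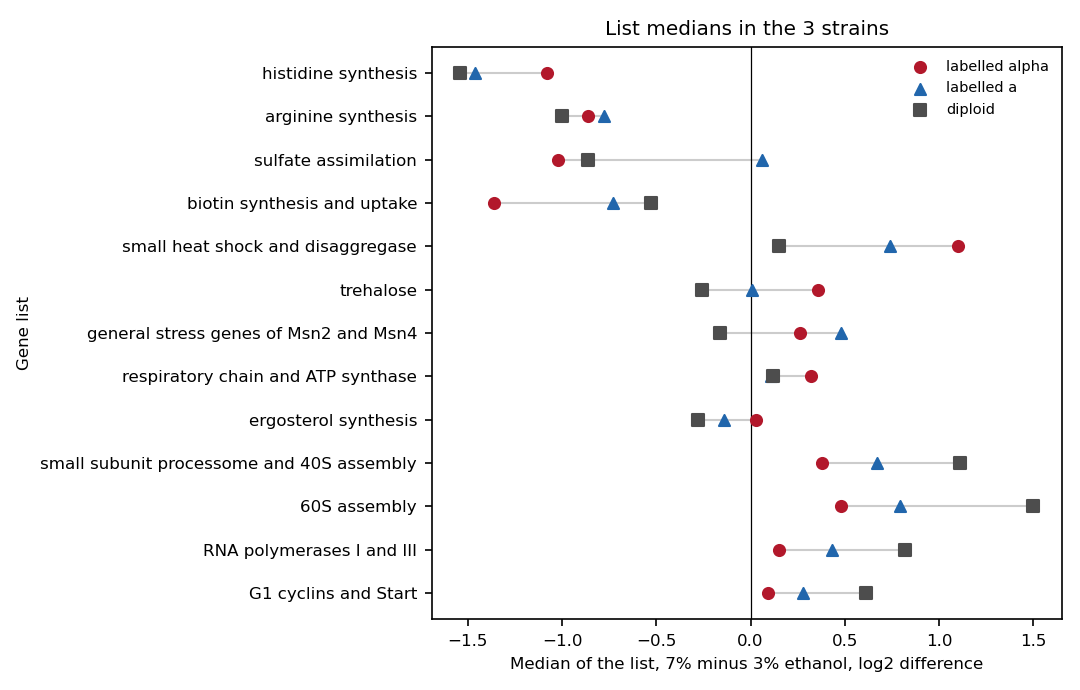
Median log2 difference between 7% and 3% ethanol (horizontal axis) of 13 gene lists in the alpha-labelled strain (red circles), the strain labelled a (blue triangles) and the diploid (grey squares), joined by a grey line for each list. The medians of 60S assembly are 0.48, 0.79 and 1.5, those of sulfate assimilation -1.02, 0.06 and -0.86, and those of trehalose 0.36, 0.01 and -0.26.

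Many trehalose and stress genes had a more positive change than in the diploid, where part of them fell. TSL1 of the trehalose synthase rose in the alpha-labelled strain and fell by 1.11 in the diploid, a difference of 1.47 ± 0.12 (adjusted p = 3.08e-08). Of 7 trehalose genes 4 had a more positive change than in the diploid, where 5 of the 7 fell, and 3 than in the strain labelled a, with medians of 0.36, -0.26 and 0.01. The 3 became 0 without scaling. Of 34 genes under Msn2 and Msn4, 15 had a more positive and 2 a more negative change than in the diploid, where 8 rose and 8 fell (median -0.16). Of the 5 small heat shock and disaggregase genes 4 had a more positive change than in the diploid, with medians of 1.10 and 0.15. HSP26 of that list went the other way: it rose by 2.44 in the diploid, and the difference was -0.57 ± 0.14 (adjusted p = 0.0092). Without scaling 0 genes of that list were more negative. Against the strain labelled a (median 0.48), 3 of the 34 genes under Msn2 and Msn4 were more positive and 5 more negative. These counts were 1 and 3 without scaling, and 5 genes were more positive with median centring.

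Of 25 ergosterol genes 12 had a more positive change than in the diploid, where 18 fell and 0 rose, and 1 a more negative one, with medians of 0.03 and -0.28. Of 37 respiratory genes 14 were more positive and 2 more negative than in the diploid. Glycogen genes had 7 more positive and 0 more negative of 15, and 8 of them fell in the diploid. Without scaling the more positive counts against the diploid were 8 for the genes under Msn2 and Msn4, 2 for ergosterol, 6 for respiration and 3 for glycogen. Leaving out single arrays brought them down to 8 (without alpha 3% replicate 2 or diploid 7% replicate 2), 6 (without diploid 3% replicate 1), 9 (without either diploid 7% array) and 4 (without alpha 3% replicate 2, alpha 7% replicate 1 or diploid 3% replicate 1) in the same lists. In histidine synthesis 2 of 7 genes had a less negative change than in the strain labelled a and 0 a more negative one. The 2 became 1 without scaling, and the count was also lower when any array but 3% replicate 2 of either strain was left out. Against the diploid 2 were less negative and 1 more negative, and both counts were 0 without scaling. HIS4 differed by 0.88 ± 0.099 from the strain labelled a (adjusted p = 8.43e-06) and by -0.45 ± 0.099 from the diploid (adjusted p = 0.00353).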

How the data were processed

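RNA of 18 yeast samples, 2 for each of 3 strains at 3 ethanol levels, was measured on Affymetrix yeast genome arrays. The deposited values are intensities, 1 signal per probe set and array, made by the submitters with GCOS, per the submitters' processing notes; the sources used here give no version, target value or floor. The 2% trimmed mean over the Saccharomyces cerevisiae probe sets ranged from 368.5 to 521.5 between the deposited arrays.

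Each array was multiplied by 1 factor (0.84 to 1.19) to give all the same trimmed mean, 16 was added and log2 taken. Of 10928 probe sets, 5498 are for S. cerevisiae genes, named through the platform annotation with 12 symbols updated; 3470 had no gene name and were not tested with the genes. Of 5449 genes, 5363 entered the test; 86 did not exceed, on at least 2 arrays, the background limit, which is the 95th percentile of the 1746 probe sets of the other yeast on the array. A model with the 9 groups, which leaves 9 residual degrees of freedom, was fitted with limma 3.58.1 in R 4.3.3 (lmFit, eBayes with an intensity trend), and p-values were adjusted by Benjamini-Hochberg over all genes tested. The model was also run on simulated data with known changes, independent noise and no shift between arrays. That run does not bear on the effect of scaling, and no result here rests on it. Tables and figures were made with Python 3.11.15, pandas 2.3.3, numpy 2.4.6 and matplotlib 3.10.9. Groups followed the sample titles. Precision rests on 2 arrays a group, since intensities carry no read depth.

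The comparison, the gene lists and the rule for named genes were chosen with earlier results of these data known. Named were the 15 largest rises and 15 largest falls of genes with adjusted p under 0.05 and groups that did not overlap, the 6 largest differences each way against each other strain, up to 5 members of each list by adjusted p, members that went against their list, regulators or defining members, and mating-type markers. The alternatives were quantile normalization, median centring and no scaling, pseudocounts of 1 and 64, other filters on dim probe sets, the spread of the strain alone, the replicate number as a block, and each array left out. Promoter motifs were not analysed here, since no sequence was used.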

Additional observations from a re-analysis of the deposited data

Results flagged for a closer look

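The change between 7% and 3% ethanol differed between strains, by limma's test of the difference of 2 changes at an adjusted p under 0.05, in the genes below, which have the largest differences of each sign. Values are the change in the alpha-labelled strain minus the change in the other strain, on the log2 scale.

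Against the strain labelled a, the change was more positive in FLO11 by 4.15, YER053C-A by 1.74, MF(ALPHA)2 by 1.69, TPO4 by 1.38, ZPS1 by 1.38 and CYC1 by 1.3. It was more negative in HXT2, at -3.83, SUT1, at -2.19, MET3, at -2.04, MPC3, at -1.74, YKR075C, at -1.67, and MET2, at -1.62.

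Against the diploid, the change was more positive in FLO11 by 3.78, YER053C-A by 2.15, HMG1 by 1.89, TPO4 by 1.78, CYC1 by 1.77 and YLR108C by 1.58. It was more negative in HXT2, at -2.85, AAH1, at -2.06, NSR1, at -1.97, URA7, at -1.94, DBP2, at -1.79, and ECL1, at -1.76. FLO11, YER053C-A, TPO4, CYC1 and HXT2 stand in both sets, which share the alpha arrays.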

How the results depend on the processing

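The 911 values of the 47 genes in the lists of largest changes and differences kept their direction and their side of the threshold under all alternatives run, 16 for the 7% against 3% comparison and 18 for each difference between strains. At 7% against 3%, no gene was called with opposite signs in the main setting and any of its 16 alternatives. The 47 genes were chosen for large changes or differences at an adjusted p under 0.05 in the same arrays, so their stability was partly fixed in advance. GIT1 lay above the background limit on 15 of the 18 arrays. It was not in the fit limited to genes above the limit on all 18. The counts were less stable. Without scaling, 322 genes were higher at 7%, and the differences counted 25 more positive and 155 more negative against the strain labelled a, and 124 and 226 against the diploid. Against the strain labelled a the more negative count was 151 with median centring and 147 with quantile normalization. When single arrays were left out, the count of genes higher at 7% ran from 533 to 708, falling most without 3% replicate 2 (533) and 7% replicate 1 (539). Against the strain labelled a, the more positive count ran from 59 to 88 (61 without 7% replicate 1 or 7% replicate 2 of the alpha-labelled strain, 59 without 7% replicate 2 of the strain labelled a) and the more negative from 121 to 208 (121 without alpha 3% replicate 1, 131 without alpha 7% replicate 2, 129 without 7% replicate 2 of the strain labelled a). Against the diploid, the more positive count ran from 213 to 270 (225 without alpha 3% replicate 2, 227 without alpha 7% replicate 1, 226 without diploid 3% replicate 1, 213 without diploid 7% replicate 2). Each of these fits leaves a single array in 1 of its groups, and why the counts moved was not tested.

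The replicate numbers were not taken to pair the samples, since the titles give no shared culture, day or batch and each group holds 2 arrays. Between same-numbered deviations, the correlation was 0.16 for 3% with 7% and 0.11 and 0.16 for 0% with 3% and 7% in the alpha-labelled strain, and it ranged from -0.25 to 0.18 over the 36 pairs of groups, 11 of them over 0.1. With the replicate block the counts were 886 higher and 554 lower, and 974 and 597 with a block within each strain. With the block, the differences against the strain labelled a numbered 107 and 247, and against the diploid 348 and 518. With the block within each strain they numbered 124 and 273, and 377 and 571.

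The pseudocount of 1 or 64 moved 12 values by over 1.5-fold. At 7% against 3%, FLO11 was at 4.44 and 3.21, INO1 at 2.79 and 1.47, CHA1 at 2.33 and 1.34, HXT2 at -3.55 and -2.19, PRY3 at -3.29 and -2.11 and FUS1 at -2.47 and -1.33. The differences of FLO11 were 4.62 and 3.28 against the strain labelled a and 4.07 and 3.10 against the diploid, those of HXT2 -4.36 and -2.92 and -3.35 and -2.02, and that of YLR108C 2.02 and 0.95 against the diploid. Some of the lists counted above with 0 rises or 0 falls gained 1 or 2 calls under some settings. Others stayed at 0 under all settings, such as the rises of histidine, sulfate and biotin genes. The falls of 60S, 40S and respiratory chain genes also stayed at 0. Motifs in promoters were not run.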

Other observations

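Genes of nicotinamide adenine dinucleotide synthesis and vitamin B3 uptake were also lower at 7%; the list was chosen after its values were seen, so it carries no test. Of 15 genes 10 fell and 1 rose, with a median of -0.53 on the log2 scale. Beside the carrier NRT1, NRK1, the nicotinamide riboside kinase, read 113.5 and 115.4 at 7%, against 335.6 and 316.9 at 3%, and fell by 1.39 (limma, adjusted p = 8.18e-10). BNA4, BNA6 and BNA2 of synthesis from tryptophan fell by 1.29, 1.10 and 1.05 (limma, adjusted p at most 1.07e-07). BNA6 read 668.7 and 696.2 at 7%, against 1464 and 1504 at 3%, with no overlap. PNC1, nicotinamidase, read 1169 and 1205 at 7%, against 1002 and 1009 at 3%, and rose by 0.24 (limma, adjusted p = 0.0284).

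Of the 3470 probe sets without a gene name in the annotation used, 704 were above the background limit often enough to be tested. They were fitted and adjusted apart from the named genes (limma, adjusted p under 0.05). Of the 704, 28 were higher and 25 lower at 7% than at 3%, smaller shares than the 16.6% and 10.1% of the named genes.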
